A study of Drosophila melanogaster with 8 samples.

Results

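The comparison described here set whole heads of the Bully line against whole heads of its parent line when both had been reared at 19C. It rests on 4 of the 8 RNA sequencing libraries of the series, 2 for Bully and 2 for Canton-S (CantonS), and on 8480 of the 15240 genes in the deposited table, those with a mean of at least 1 RPKM (a read density per kilobase of gene that is scaled to sequencing depth) over all 8 libraries. Bully is a hyper-aggressive line derived from Canton-S, a standard wild-type laboratory strain of Drosophila melanogaster. The flies were socially naive adults of 6 days, about 90 frozen heads were pooled for each sample, and the libraries of a group are independent biological replicates by the series description. The remaining 4 libraries are the same lines reared at 25C; they entered the model, and their values are given beside those at 19C. The labels name no sex, no transgene and no single driving mutation, so the lines are compared as whole genetic backgrounds.

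A fly head holds the brain and the compound eyes together with fat body, blood cells (hemocytes), cuticle-forming cells, glia and muscle, and a head transcriptome averages over them. Fat body and hemocytes supply storage proteins, detoxifying enzymes and immune peptides, and neurosecretory cells in the brain supply peptide hormones. In such bulk tissue fewer cells of a type cannot be told apart from less RNA per cell.

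The libraries are called a and b as names only. By inference from the steps between RPKM values, Bully a and b held 114.8 and 79.9 M reads (M, mega). CantonS a and b held 107.6 and 117.8 M reads. At these depths 1 read in a 1 kb gene was worth 0.00849 to 0.0125 RPKM. The labelled tissue was checked against marker genes, and those of neurons, photoreceptors, glia, fat body and muscle were present in every library, apart from the fat body gene Fbp1, which stayed at or below 0.0760 RPKM. Markers of ovarian follicle cells summed to at most 0.477 RPKM per 19C library and those of midgut to at most 2.12 RPKM, the latter in CantonS b. Testis markers were low but unequal: the 5 genes summed to 2.42 and 2.83 RPKM in Bully and to 0.261 and 0.632 RPKM in CantonS, most of it Mst87F. The 5 accessory gland markers differed the other way, with sums of 3.93 and 3.49 RPKM in Bully and 6.03 and 9.18 RPKM in CantonS. Whether testis or accessory gland RNA has a part in any result was not tested. The dosage compensation RNA roX1, which is made in males, lay between 121 and 136 RPKM in all 4 libraries, with a log2 difference of 0.04.

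CantonS b stood apart from the other 19C libraries in how its values followed gene length. Each gene's deviation from its own mean over the 8 libraries was ranked against the summed exon length of the 8311 genes with a known length. Spearman's rho was -0.683 in CantonS b, against -0.101 in CantonS a, 0.357 in Bully a and 0.266 in Bully b. In CantonS b the median deviation ran from 0.47 (log2) in genes of at most 500 bp to -0.48 in genes over 8000 bp. At 25C, where values are given as deposited, rho was 0.452 and 0.238 in CantonS a and b. It was 0.068 and -0.042 in Bully a and b. The replicate correlation at 19C across genes, which are not independent, was 0.9765 in CantonS and 0.9927 in Bully.

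This slope carried into the line difference. The median log2 difference, Bully minus CantonS, was -0.46 in genes of at most 500 bp, -0.40 from 500 to 1000 bp, -0.05 from 2000 to 3000 bp and 0.31 over 8000 bp. Without CantonS b it still ran from -0.33 to 0.04, since CantonS a and both Bully libraries sloped opposite ways. Classes made of short genes are therefore given below as deposited and after removal of the length trend of each library. For some of these classes, or for single genes in them, the fit without CantonS b is given as well. The part that the trend has in any single difference was not tested.

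**Figure D1:**
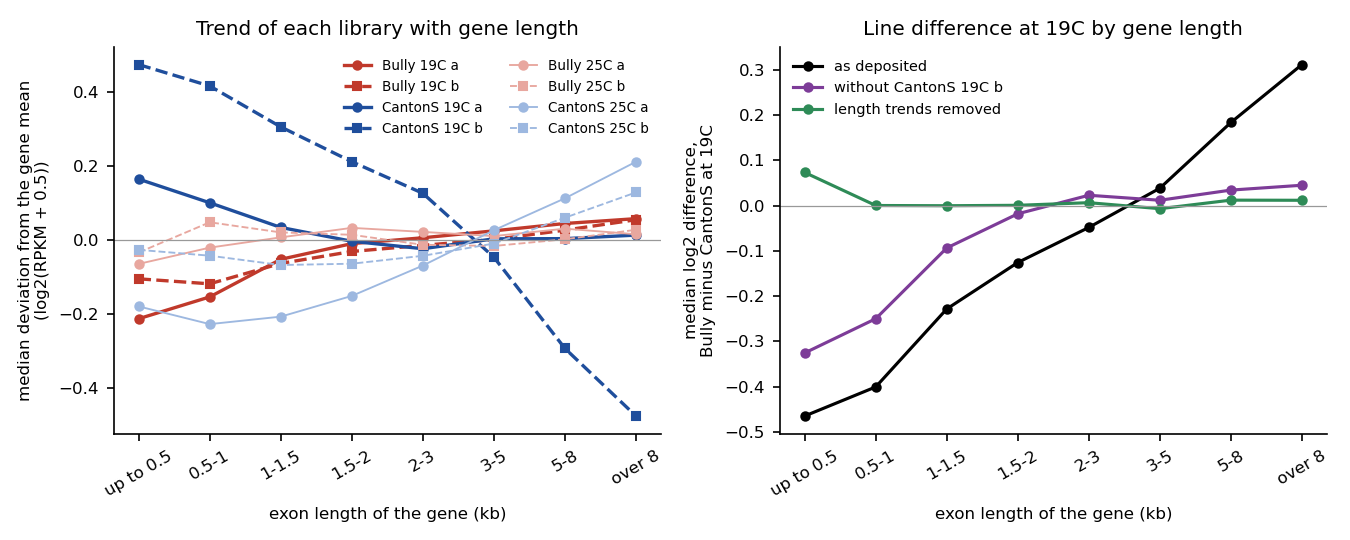
Left, the median deviation of each library from the gene mean (log2(RPKM + 0.5)) in 8 classes of exon length (kb), with Bully in red, CantonS in blue and the 25C libraries in paler shades. Right, the median log2 difference of Bully minus CantonS at 19C in the same classes. CantonS b falls from 0.47 to -0.48 across the classes, and the line difference climbs from -0.46 to 0.31 as deposited. The line difference lies close to 0 once the trends are removed, which follows from the removal itself.

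Of the 8480 genes tested, 292 were higher in Bully (3.44%) and 684 lower (8.07%) at an adjusted p below 0.05 in limma, 976 in all (11.5%). The excess of lower calls was strongest in short genes: 297 of the 324 calls in genes up to 1000 bp were lower. It continued in longer genes, with 39 higher and 178 lower from 1000 to 1500 bp and 45 and 93 from 1500 to 2000 bp. Above 5000 bp 67 of the 74 calls were higher. With the length trends removed the split turned to 490 higher (5.9%) and 399 lower (4.8%). Median-of-ratios rescaling gave 403 and 516, and quantile normalization 395 and 466. Without CantonS b there were 247 higher (2.91%) and 325 lower (3.83%).

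The libraries of the lines did not overlap for all 976 called genes, but they also did not overlap for 60% of all genes tested. Of the calls, 588 were also called with the length trends removed, 456 also without CantonS b, and 358 in both of these fits. A core of 114 genes (1.34% of those tested), 31 higher (0.366%) and 83 lower (0.979%), was called when any 1 of the 8 libraries was left out and with the length trends removed. Of these 114, 112 had the same sign at 25C, and 23 of the 31 and 58 of the 83 were called there too. Over all 976 calls the sign at 25C was the same for 624. These were 250 of the 292 higher and 374 of the 684 lower genes, so the sign held less often among the falls. The genes below are described with this core of 114 genes in mind, and a gene of the core is called a core gene.

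Values are given from here on as the Bully libraries a and b against the CantonS libraries a and b, and log2 differences are Bully minus CantonS on the scale of log2(RPKM + 0.5). That scale understates the change of genes with low values. Adjusted p-values are from limma with Benjamini-Hochberg adjustment over the 8480 genes. Counts of calls as deposited in every list below stand beside 3.44% higher and 8.07% lower over all genes tested. Counts of signs stand beside 4788 negative differences among the 8480.

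The larval serum proteins, hexameric storage proteins that the fat body secretes, rose in Bully. Lsp1beta stood at 38.5 and 35.8 against 3.21 and 3.23 RPKM, an 11.5-fold ratio of means, with a log2 difference of 3.34 (SE 0.11, adjusted p = 3.12e-06). Lsp2 was far more abundant, 366 and 398 against 85.2 and 113 RPKM, and rose by 1.95 (SE 0.23, adjusted p = 0.00216). Both Bully libraries lay well above both CantonS libraries for each gene, and both are core genes; the other 4 listed storage protein genes lay below 1 RPKM and were not tested. Lsp2 shares exonic sequence with an antisense RNA gene, and the strand of the reads is not given in the sources used here.

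Other fat body and lipid genes did not move as a group. Of 18 tested, 1 rose and 0 fell, with a median of 0.07 beside -0.05 for all genes tested. The 1 call, CG15828 (Apoltp, a lipoprotein gene), had 12.5 and 13.004 against 8.26 and 7.98 RPKM and lost its call with the length trends removed (adjusted p = 0.339) and without CantonS b (adjusted p = 0.0534). The perilipin genes Lsd-1, at 56.9 and 45.4 against 25.4 and 32.6 RPKM, and Lsd-2, at 36.3 and 37.9 against 27.2 and 24.3 RPKM, did not pass at adjusted p = 0.0520 and 0.0520. Rfabg (apolpp), the main lipoprotein precursor, overlapped between the lines at 227 and 181 against 183 and 158 RPKM.

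Cytochrome P450 enzymes, which oxidise hormones, toxins and fatty acids, changed in both directions. Of 60 tested genes 12 rose and 7 fell, and all 19 kept their calls with the length trends removed, where 16 were higher and 7 lower. Without CantonS b 9 were higher and 5 lower. The list median was 0.25 as deposited and 0.39 with the trends removed.

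On the scale of log2(RPKM + 0.5) the largest fitted fall was in Cyp6a2, a P450 known from insecticide metabolism; genes near 0 in a line, such as mthl8 below, are held back by the added 0.5 and cannot be ranked against it. Its level was 0.562 and 0.464 against 47.9 and 57.4 RPKM, 103-fold lower in Bully by the ratio of means, with a log2 difference of -5.71 (SE 0.13, adjusted p = 2.61e-07). Among P450 genes Cyp4p2 followed at 1.19 and 1.17 against 14.2 and 16.8 RPKM and Cyp6a17, which has been linked to temperature preference, at 1.898 and 2.26 against 18.5 and 24.5 RPKM. Their log2 differences were -3.25 (SE 0.15, adjusted p = 1.60e-05) and -3.08 (SE 0.22, adjusted p = 0.000134), and in all 3 genes the Bully libraries lay at a small part of either CantonS library.

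Other P450 genes moved the other way. Cyp6a8 had 58.1 and 70.1 against 6.01 and 10.4 RPKM and rose by 2.93 (SE 0.34, adjusted p = 0.00198). Cyp6a23, at 13.6 and 16.4 against 3.35 and 3.56 RPKM, rose by 1.96 (SE 0.16, adjusted p = 0.000401). Cyp6w1, at 87.2 and 87.02 against 23.5 and 29.9 RPKM, and Cyp4d1, at 3.16 and 3.07 against 0.554 and 0.576 RPKM, are core genes as well. Cyp6a14 fell in the core with 0.284 and 0.277 against 1.57 and 2.42 RPKM. Members of the Cyp6a subfamily thus stood among both the largest rises and the largest falls. The insecticide resistance gene Cyp6g1 stood at 129.9 and 136 against 68.7 and 64.5 RPKM and rose by 0.99 (SE 0.21, adjusted p = 0.0222), but its call was lost without CantonS b (adjusted p = 0.0784). Cyp12d1-p and Cyp12d1-d are near-identical copies whose reads may not be separable. Both were lower, and both calls were lost without CantonS b (adjusted p = 0.0646 and 0.0707).

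Conjugating enzymes and exporters of the same detoxification chain were mixed. Among 30 glutathione transferases 0 rose and 4 fell as deposited, and 2 rose and 2 fell with the length trends removed. GstE8, at 1.52 and 1.99 against 9.03 and 15.6 RPKM, fell with a log2 difference of -2.47 (SE 0.25, adjusted p = 0.00106) and GstE11, at 2.12 and 2.16 against 5.56 and 5.84 RPKM, with one of -1.23 (SE 0.18, adjusted p = 0.00637); these are the 2 core genes of the list. GstE9 and GstO1 lost their calls with the trends removed. Of 18 UDP-glycosyltransferases 3 rose and 2 fell, and with the trends removed 8 rose and 2 fell. Ugt86Dd fell from 7.57 and 8.77 RPKM in CantonS to 2.67 and 1.804 RPKM in Bully, a log2 difference of -1.68 (SE 0.20, adjusted p = 0.00205), and its neighbour Ugt86De had 0.646 and 0.749 against 2.13 and 2.27 RPKM. Mdr50, an ABC transporter of the multidrug resistance type, was low in CantonS, at 3.45 and 3.85 against 0.181 and 0.323 RPKM, and rose by 2.47 (SE 0.16, adjusted p = 9.17e-05).

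**Figure D2:**
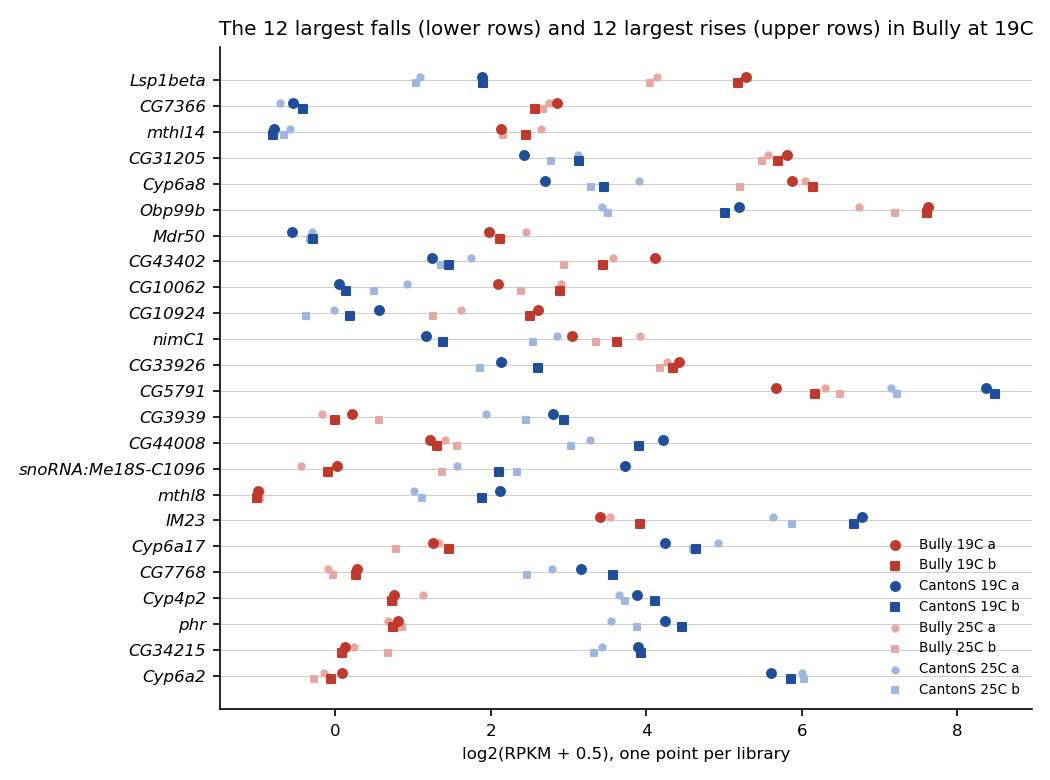
Levels of the 12 genes with the largest rises and the 12 with the largest falls, as log2(RPKM + 0.5) with 1 point per library; circles are library a, squares library b, red Bully, blue CantonS, and paler points the 25C libraries. The genes were chosen among called genes whose 19C libraries do not overlap, so separation of red and dark blue points is by choice. The 25C points of each line lie mostly on the same side as its 19C points, with CantonS nimC1 at 25C closer to Bully.

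A pair of methuselah-like receptor genes was measured in 1 line and lay close to 0 in the other. The gene mthl8 was listed at 0.00128 and 0 against 3.86 and 3.21 RPKM; its fitted log2 difference (-3.01, adjusted p = 1.34e-05) is set by the pseudocount and no fold is given. A second member of this family of adhesion-type receptors, mthl14, showed the mirror image with 3.87 and 4.96 against 0.079996 and 0.0772 RPKM and a difference of 3.08 (SE 0.18, adjusted p = 6.65e-05). Its exons overlap those of DIP2 on the opposite strand. Of the 8 tested methuselah genes 3 rose and 1 fell, mthl4 (0.87) and mthl3 (0.76) being the others that rose, and the call of mthl3 was lost without CantonS b (adjusted p = 0.0782). The photolyase gene phr, whose product repairs ultraviolet damage in DNA using light, had 1.25 and 1.17 against 18.5 and 21.5 RPKM and fell with a log2 difference of -3.58 (SE 0.15, adjusted p = 9.06e-06).

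The phr exons lie opposite those of the proteasome gene Prosalpha1, which was lower too (29.1 and 31.6 against 48.2 and 64.9 RPKM, log2 difference -0.87 (SE 0.19, adjusted p = 0.0230)). CG18853, opposite the near-identical proteasome copy CG30382 (Prosalpha1R), had 16.1 and 15.5 against 45.7 and 47.8 RPKM. Reads of these overlapping genes cannot be told apart without strand, so the levels of the pairs are uncertain. On the same scale the fitted differences were -3.58 for phr and -0.87 for Prosalpha1. The part that shared reads have in either was not tested.

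Odorant binding proteins, small carriers that are secreted into sensory and other fluids, had 2 rises and 4 falls among 26 tested genes. With the length trends removed the count was 6 rises and 4 falls, and the median moved from -0.45 to -0.03. Obp99b was the clearest, at 197 and 195 against 35.99 and 31.9 RPKM, a 5.78-fold ratio of means and a difference of 2.52 (SE 0.17, adjusted p = 0.000122). Obp83cd rose from 0.774 and 0.801 RPKM to 1.71 and 2.39 RPKM. Obp56a, Obp56d and Obp56h fell, with log2 differences of -1.81, -1.39 and -1.69; the calls of Obp56a and Obp56d were lost without CantonS b. Obp57d fell together with the cuticle gene Cpr57A, with 1.01 and 0.915 against 5.64 and 7.31 RPKM and 1.53 and 1.41 against 8.52 and 11.03 RPKM. The 2 genes share exonic sequence on the same strand, so their reads may not be separable and they cannot be counted as 2 separate differences.

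Among 21 tested cuticle protein genes 0 rose and 6 fell, or 3 and 5 with the length trends removed. Lcp65Ag1 had 11.6 and 13.9 against 35.2 and 53.9 RPKM and fell with a log2 difference of -1.74 (SE 0.22, adjusted p = 0.00312), and its near-identical copies Lcp65Ag2 and Lcp65Ag3, whose reads may be shared, fell with log2 differences of -1.48 (SE 0.24, adjusted p = 0.00908) and -1.34 (SE 0.22, adjusted p = 0.0101). The remaining 109 cuticle genes in the table lay below the filter.

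Some secreted immune peptides fell in Bully heads. The bomanins and related immune-induced (IM) molecules are short peptides that the fat body releases under Toll signalling. All 17 listed genes were tested: 0 rose and 7 fell, the median was -0.72, and 5 of the falls are core genes. IM23 (BomBc1) stood at 10.1 and 14.6 against 109 and 102 RPKM and fell with a log2 difference of -3.06 (SE 0.21, adjusted p = 0.000113). IM2 (BomS2), one of the most abundant peptides of the list, stood at 186 and 218 against 825 and 810.2 RPKM and fell with a log2 difference of -2.02 (SE 0.15, adjusted p = 0.000219). CG5791 (BomBc3) went from 329.7 and 358 RPKM in CantonS to 50.3 and 71.3 RPKM in Bully, a difference of -2.51 (SE 0.19, adjusted p = 0.000210).

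CG18107 (BomS4), at 56.8 and 67.4 against 225 and 302 RPKM, and IM3 (BomS3), at 36.4 and 55.4 against 124 and 118 RPKM, complete the 5 core genes, though CG18107 overlaps CG15067 (BomBc2) on the opposite strand. CG5778 (BomT3) and CG15065 (BomS5) were called as deposited, with differences of -1.05 and -1.89; the first lost its call with the trends removed (adjusted p = 0.0922), the second without CantonS b (adjusted p = 0.0567). The other 10 did not pass as deposited. IM1 and CG16712 (IM33) had differences of -0.71 and -0.59, CG15067, CG15068 and IM18 of -0.74, -0.72 and -0.64, and IM10 and CG16836 of -0.27 and -0.27. IM4 (0.22) and IM14 (0.24), the daisho peptides, lay slightly on the Bully side. CG43202 (BomT1) changed sign with the processing, -0.05 as deposited and 0.53 with the length trends removed (adjusted p = 0.0168). IM18 has the same values as an overlapping gene in every library.

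At 25C IM2 had 230.1 and 243 against 367 and 361 RPKM and a difference of -0.62 (adjusted p = 0.0791). CG5791 had 77.98 and 89.2 against 141 and 149 RPKM there, with a difference of -0.79 (adjusted p = 0.0696). In both genes CantonS reared at 19C held the highest levels of the 4 groups. IM23 was lower in Bully at both temperatures, with -2.02 at 25C (adjusted p = 0.00162). No gene passed the test of the difference between temperatures (the interaction, described at the end).

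Classical antimicrobial peptide genes had a median of -1.70 over 13 tested members, and all 13 differences were negative, but only 2 passed. Over all genes tested 4788 of 8480 differences were negative and 8.07% of genes fell. Defensin (Def) is a core gene with 1.201 and 1.19 against 9.39 and 6.79 RPKM and a log2 difference of -2.32 (SE 0.27, adjusted p = 0.00194). Metchnikowin (Mtk), at 0.618 and 0.234 against 3.92 and 3.07 RPKM, fell with a log2 difference of -2.13 (SE 0.52, adjusted p = 0.0362) and lost its call with the length trends removed (adjusted p = 0.111) and without CantonS b (adjusted p = 0.0975). Some of the rest varied strongly between the CantonS libraries. Attacin C (AttC) had 3.43 and 3.87 against 33.1 and 4.89 RPKM, the diptericin gene Dpt 1.18 and 0.52999 against 17.199 and 2.29 RPKM and cecropin A1 (CecA1) 1.89 and 2.18 against 24.7 and 6.28 RPKM, so that CantonS a alone held most of the difference. Drs, AttA and Drsl5 overlapped between the lines. With the trends removed Drsl4, Drs, AttA and Drsl5 had positive differences and none passed.

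The receptors and intracellular parts of the Toll and Imd pathways showed little, with calls near the 3.44% higher and 8.07% lower of all genes. Of 32 tested genes 1 rose (Dif, 7.06 and 7.56 against 5.33 and 4.93 RPKM) and 3 fell (PGRP-SD, PGRP-SC2 and BG4, the gene now called Fadd), with a median of 0.03; with the length trends removed or without CantonS b none passed. PGRP-SD, a recognition protein, stood at 8.94 and 8.84 against 18.4 and 18.5 RPKM. Core genes outside the lists included 2 further immune genes, picked after their values were seen: CG13422 (GNBP-like3) at 6.43 and 7.96 against 32.7 and 35.95 RPKM and CG30424 (cGlr2, a cGAS-like receptor) at 3.32 and 2.85 against 9.999 and 8.75 RPKM.

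Among hemocyte genes some markers rose in Bully and none fell. Of 11 listed markers 10 were tested, 5 rose and 0 fell, beside 3.44% and 8.07% of all genes tested. All 10 differences were positive and the libraries did not overlap for any of them, as for 60% of all genes. The median was 0.89, and 1.01 with the length trends removed. The phagocytosis receptor gene nimC1 had 7.75 and 11.8 against 1.76 and 2.12 RPKM and rose by 2.05 (SE 0.24, adjusted p = 0.00208). Papilin (Ppn), an extracellular matrix protein, stood at 9.92 and 13.6 against 3.99 and 3.51 RPKM, hemolectin (Hml) at 4.41 and 6.79 against 1.82 and 1.47 RPKM and the crystal cell enzyme proPO-A1 at 3.67 and 7.25 against 1.16 and 1.05 RPKM. The scavenger receptor Sr-CI, at 2.87 and 3.63 against 1.28 and 1.61 RPKM, was the fifth call.

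Only nimC1 kept its call without CantonS b, where Ppn, Hml, proPO-A1 and Sr-CI came to adjusted p = 0.0519, 0.0804, 0.0850 and 0.0575, with a list median of 1.02. At 25C 0 of the 10 passed and the median was 0.09. CantonS at 19C lay below the other 3 groups for Ppn and Hml. Ppn had means of 12.2 RPKM in Bully and 11.3 RPKM in CantonS at 25C, and Hml 5.34 and 5.62 RPKM. The broader markers Pxn, at 9.74 and 10.1 against 8.71 and 8.03 RPKM, and crq, at 35.9 and 32.04 against 26.8 and 30.7 RPKM, did not pass, nor did the collagen genes Cg25C and vkg, whose difference was 0.67 in vkg with adjusted p = 0.0647.

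**Figure D3:**
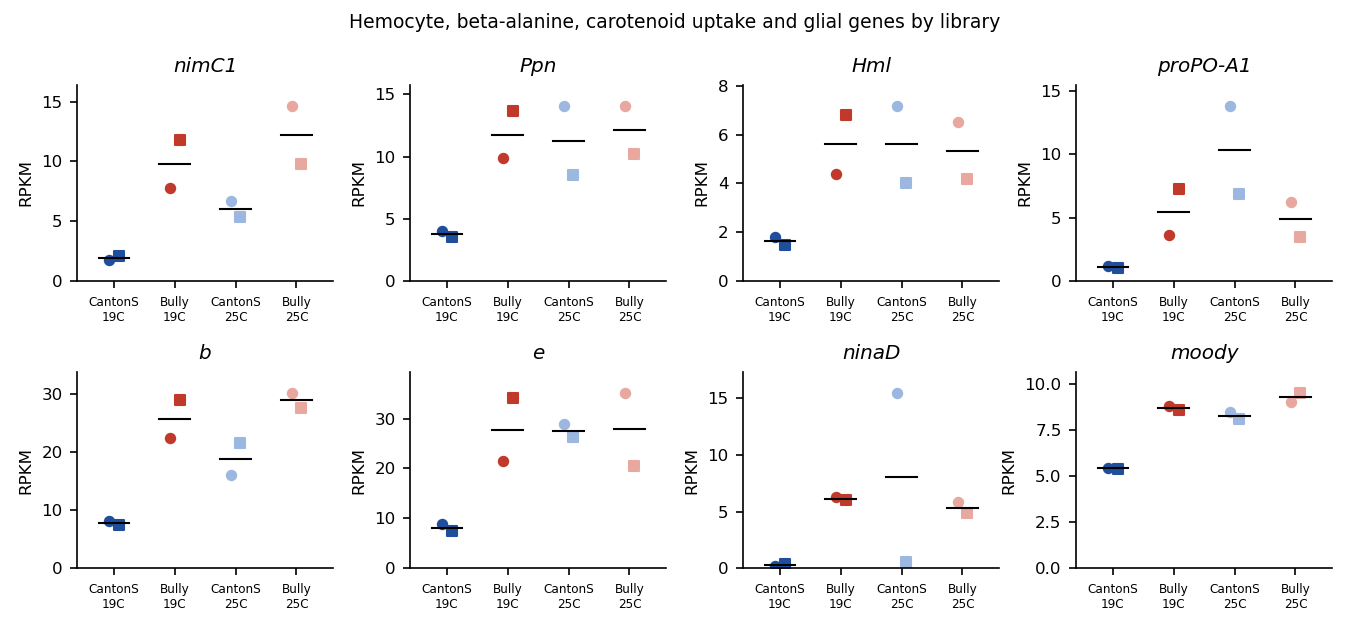
RPKM in each library for 8 genes with higher values in Bully at 19C; circles are library a, squares library b, and the black bar is the mean of 2 libraries, on axes that start at 0. CantonS at 19C is the lowest group in every panel; for Hml, e and moody the other 3 groups lie at similar heights, and for ninaD CantonS at 25C splits into 15.5 and 0.5 RPKM.

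Beta-alanine is joined to histamine in the eye and to dopamine in cuticle. Among 7 tested genes of histamine and beta-alanine recycling 2 rose and 0 fell, with a median of 0.13. The gene b (black) encodes the decarboxylase that makes beta-alanine; it stood at 22.5 and 29.1 against 8.24 and 7.48 RPKM and rose by 1.64 (SE 0.18, adjusted p = 0.00171). The gene e (ebony) encodes the ligase that joins beta-alanine to amines; it stood at 21.4 and 34.1 against 8.802 and 7.49 RPKM and rose by 1.68 (SE 0.28, adjusted p = 0.00999). For each gene both Bully libraries exceeded both CantonS libraries more than 2-fold, b is a core gene, and the call of e was at the threshold without CantonS b (adjusted p = 0.0504). The hydrolase gene t (tan) had 49.9 and 45.9 against 36.9 and 40.6 RPKM, the carcinine transporter CG9317 (CarT) 8.904 and 8.17 against 10.3 and 9.75 RPKM, and neither passed. A core gene outside the list, picked after its values were seen, is CG3790 (Balat), named for beta-alanine transport, at 8.72 and 11.2 against 3.22 and 2.002 RPKM and a rise of 1.77 (SE 0.20, adjusted p = 0.00199). It overlaps the antisense RNA CR43469, which has nearly the same values, so these reads cannot be assigned to a strand. At 25C the means of e were 27.8 RPKM in Bully and 27.6 RPKM in CantonS.

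Glial genes gave 5 rises and 1 fall among 14 tested, with a median of 0.26, or 0.17 with the length trends removed. The blood-brain barrier receptor gene moody had 8.81 and 8.58 against 5.44 and 5.397 RPKM and rose by 0.64 (SE 0.11, adjusted p = 0.0118). The sodium pump subunit gene nrv2 stood at 87.3 and 92.5 against 44.7 and 54.2 RPKM (0.86 (SE 0.16, adjusted p = 0.0143)), and axo, Gli and the GABA transporter CG1732 (Gat) rose by 0.78, 0.67 and 0.75. Without CantonS b only moody, nrv2 and alrm kept their calls. The astrocyte gene alrm fell, 20.3 and 20.9 against 31.1 and 28.98 RPKM, and the pan-glial factor repo overlapped, 5.85 and 5.85 against 5.72 and 5.98 RPKM. Glial markers thus differed in sign among themselves.

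Eye genes changed singly. Among 7 rhodopsins Rh5, the blue-sensitive pigment of inner photoreceptors, fell with a log2 difference of -1.04 (SE 0.16, adjusted p = 0.00709) with 108 and 102 against 197 and 239 RPKM. Rh6 and Rh4, used in the other inner photoreceptors, had 301 and 291 against 179.8 and 225 RPKM and 591 and 531 against 297 and 438 RPKM; they passed only with the length trends removed (adjusted p = 0.00919 and 0.0136), after rescaling or without CantonS b (adjusted p = 0.0443 and 0.0353). The main rhodopsin ninaE had 6428 and 5668 against 4949.7 and 7056 RPKM, overlapping between the lines. Among 26 phototransduction genes 0 passed.

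The carotenoid scavenger receptor ninaD, which takes up the precursor of the visual chromophore, had 6.25 and 6.07 RPKM in Bully against 0.247 and 0.366 RPKM in CantonS. Both Bully libraries were far above both CantonS libraries at 19C, yet the difference of 3.05 (SE 0.96, adjusted p = 0.0747) did not pass. At 25C the values were 5.82 and 4.85 against 15.5 and 0.547 RPKM, and these widely spread CantonS libraries enter the estimate of its error. A fit of the 19C libraries alone gave ninaD an adjusted p of 0.00229. Of 22 eye pigment genes cd, an ommochrome gene, rose in the core with 2.76 and 3.197 against 0.9098 and 0.713 RPKM and 1.41 (SE 0.20, adjusted p = 0.00545). cl fell with a log2 difference of -0.84, a call lost with the trends removed (adjusted p = 0.111).

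Some neuropeptide genes fell in Bully at 19C. Of 30 tested genes 0 rose and 9 fell, 29 of 30 differences were negative, and the median was -0.44. Over all genes tested 3.44% rose, 8.07% fell and 4788 of 8480 differences were negative. These are short genes, and with the length trends removed 7 of the 9 remained called and Nplp3 was called higher, with a median of -0.27. Without CantonS b 4 of the 9 remained. Pdf, the peptide of the clock neurons, stood at 69.9 and 61.1 against 174 and 214 RPKM, fell with a log2 difference of -1.55 (SE 0.16, adjusted p = 0.00120) and is the only core gene of the list. Tk (tachykinin), a peptide gene linked to male aggression in flies, had 11.4 and 9.93 against 24.97 and 22.6 RPKM and fell with a log2 difference of -1.12 (SE 0.17, adjusted p = 0.00743).

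The glycoprotein hormone subunit gene Gpb5, at 3.15 and 2.75 against 5.32 and 6.12 RPKM, and IFa (SIFa, the SIFamide precursor), at 6.32 and 5.82 against 13.3 and 19.5 RPKM, fell with log2 differences of -0.85 and -1.34 and were the other calls that remained without CantonS b. Trissin, CG8216 (spab), Mip, Lk and Dh31 fell with log2 differences of -1.005, -0.68, -0.93, -0.76 and -0.57. The calls of Lk and Dh31 were lost with the length trends removed (adjusted p = 0.147 and 0.225), and all 5 were lost without CantonS b, at adjusted p of 0.0541, 0.0548, 0.0755, 0.0902 and 0.0621. At 25C the list had 1 rise, 0 falls and a median of 0.03, and Tk had 10.5 and 14.73 against 15.2 and 14.1 RPKM. These 25C values are as deposited and carry the length slopes of the 25C libraries.

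The insulin-like peptides of the median neurosecretory cells were all lower. Ilp2 had 59.9 and 51.2 against 116 and 162 RPKM and fell with a log2 difference of -1.30 (SE 0.19, adjusted p = 0.00561); Ilp5 had 7.02 and 7.097 against 11.5 and 17.1 RPKM and fell with a log2 difference of -0.94 (SE 0.17, adjusted p = 0.0141); Ilp3 had 11.7 and 11.02 against 20.2 and 20.1 RPKM and fell with a log2 difference of -0.80 (SE 0.15, adjusted p = 0.0141). In each gene CantonS exceeded Bully without overlap. With the length trends removed only Ilp2 passed (-0.86, adjusted p = 0.0113), with Ilp5 at adjusted p = 0.0576 and Ilp3 at 0.118; without CantonS b all 3 passed. Ilp6, made in fat body, had 6.85 and 6.45 against 6.07 and 6.38 RPKM and did not pass, and 4 further insulin-like genes lay below the filter. Of 6 peptide-processing genes 2 fell: 7B2, a partner of the prohormone convertase, at 162 and 158 against 332 and 301 RPKM and -0.98 (SE 0.19, adjusted p = 0.0165), and Pal2 at 42.3 and 35.5 against 55.8 and 57.98 RPKM. Among 19 peptide receptor genes 1 passed, sNPF-R, which rose with 3.85 and 3.72 against 2.33 and 1.99 RPKM and 0.69 (SE 0.13, adjusted p = 0.0141).

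**Figure D4:**
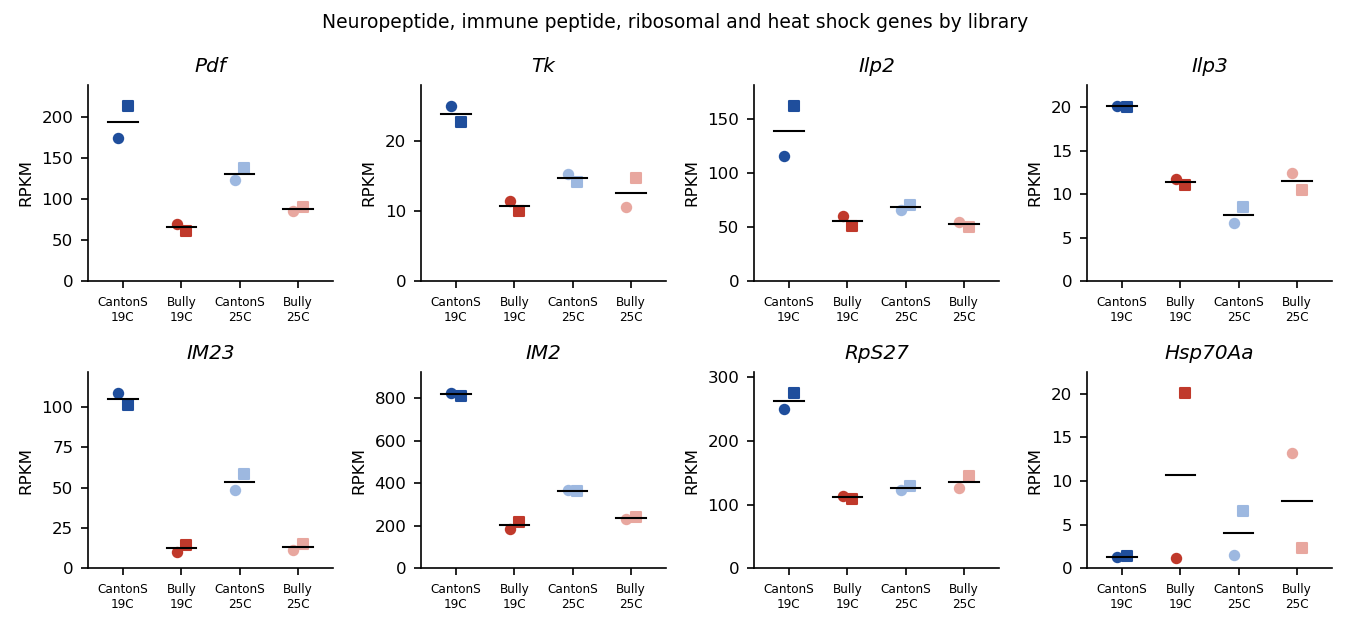
RPKM in each library for 8 genes; circles are library a, squares library b, and the black bar is the mean of 2 libraries, on axes that start at 0. CantonS at 19C is the highest group for the 3 peptide hormones Pdf, Tk and Ilp2, for Ilp3, the immune peptides IM23 and IM2 and the ribosomal gene RpS27, while Hsp70Aa is high in Bully 19C b (20.1 RPKM) and in Bully 25C a.

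Calls among genes of ribosomes and respiration were falls in Bully, and their number and size depended on the removal of length trends. Of 82 cytoplasmic ribosomal protein genes 0 rose and 36 fell, and all 82 differences were negative; the median was -0.73, and -0.37 with 22 falls once the trends were removed. Without CantonS b 8 fell, with a median of -0.62, and at 25C 0 passed and the median was 0.18. The 25C median is as deposited and carries the length slopes of the 25C libraries. RpS27 and RpL29 are the core genes. RpS27 had 114 and 108 against 250.1 and 275 RPKM and fell with a log2 difference of -1.24 (SE 0.15, adjusted p = 0.00223), or -0.82 with the trends removed. RpL29 had 94.3 and 108 against 296 and 398 RPKM, and its exons overlap those of CG9752 on the opposite strand. RpS23 and RpL37A fell with log2 differences of -0.99 and -1.03.

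For 73 mitochondrial ribosomal genes the count was 0 rises and 17 falls with a median of -0.43, but 0 and 4 with a median of -0.11 after removal of the trends. mRpL33, at 5.2998 and 6.04 against 15.6 and 13.8 RPKM, is the core gene. For 67 nuclear genes of oxidative phosphorylation it was 0 and 15 (median -0.51), then 0 and 5 (median -0.16), and 3 falls without CantonS b. The complex I subunit gene Pdsw had 31.2 and 31.9 against 74.6 and 77.4 RPKM and fell with a log2 difference of -1.26 (SE 0.20, adjusted p = 0.00827). The complex I genes CG9306 (ND-B22), at 15.3 and 17.95 against 37.1 and 37.5 RPKM, and CG11455 (ND-15), at 21.6 and 19.9 against 34.1 and 39.5 RPKM, fell as deposited and with the trends removed, and lost their calls without CantonS b (adjusted p = 0.0545 and 0.0519).

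Among 34 proteasome genes 3 fell as deposited, near the 8.07% of all genes, and 0 fell without CantonS b; 2 of the 3 are the copies Prosalpha1 and CG30382. Of 44 translation factors 1 rose (eIF2B-delta, 3.17 and 2.87 against 1.69 and 2.05 RPKM) and 4 fell, again near the share of all genes, among them Adam (eIF3j) at 15.8 and 13.7 against 29.7 and 30.6 RPKM. Small structural RNAs had 40 tested members of 324. As deposited 11 fell with a median of -0.54, and 2 fell and 1 rose with the trends removed, the median then being -0.06. Summed over the 324 listed genes, the values were 301 and 284 RPKM in Bully against 837 and 612 RPKM in CantonS. The higher CantonS sum was thus in library a and not in library b, whose values had the steepest length slope. The part that the slope has in these falls was not tested. The 2 core genes are the U3 copies snoRNA:U3:54Aa and snoRNA:U3:54Ab, which carry identical values, 7.405 and 9.06 against 21.1 and 19.9 RPKM, and count as 1 measurement. snoRNA:Me18S-C1096 had 0.513 and 0.442 against 12.8 and 3.796 RPKM; its difference of -2.95 (SE 0.63, adjusted p = 0.0230) did not pass with the trends removed (adjusted p = 0.0691) or with 3 of the single libraries left out.

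**Figure D5:**
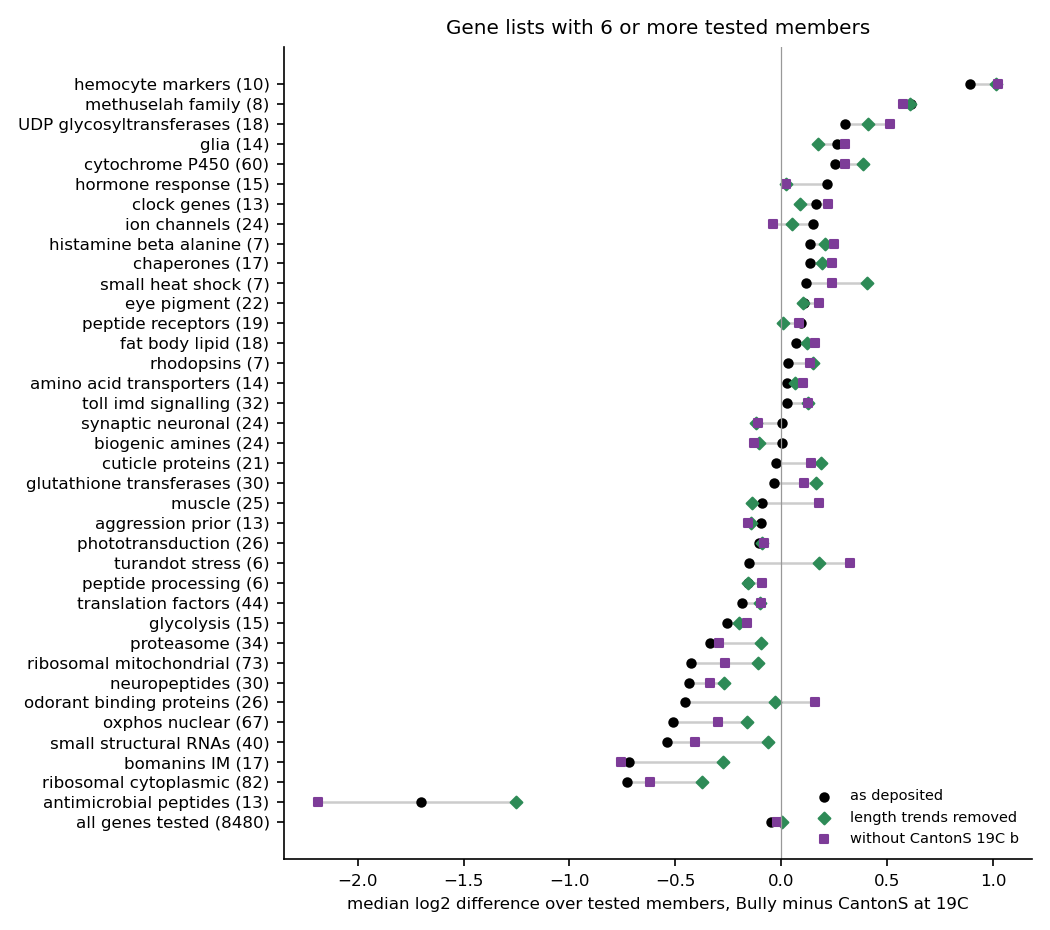
Median log2 difference over the tested members of each list with at least 6 of them (number in brackets), as deposited (black circles), with length trends removed (green diamonds) and without CantonS b (purple squares). Ribosomal, oxidative phosphorylation and small RNA medians move from -0.73, -0.51 and -0.54 to -0.37, -0.16 and -0.06 when the trends are removed, while the hemocyte median stays between 0.89 and 1.02.

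In glycolysis 2 of 15 genes fell. Gapdh2, glyceraldehyde-3-phosphate dehydrogenase, is a core gene at 31.6 and 34.4 against 133 and 187 RPKM, 4.84-fold lower in Bully, with a difference of -2.24 (SE 0.22, adjusted p = 0.000941). The hexokinase gene Hex-C had 33.1 and 28.96 against 72.002 and 58.2 RPKM and fell with a log2 difference of -1.05 (SE 0.17, adjusted p = 0.00945). PyK, at 185 and 178 against 276 and 262 RPKM, did not pass.

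Heat shock genes set 1 Bully library apart. Hsp70Aa was at 1.18 and 20.1 against 1.27 and 1.42 RPKM, Hsp68 at 3.098 and 12.4 against 2.62 and 3.51 RPKM and Hsp22 at 2.92 and 9.49 against 0.978 and 1.63 RPKM, so that Bully b was several-fold above the other 3 libraries, and none of them passed. Hsp70Aa and Hsp70Ab carry the same values. Among 17 chaperone genes 1 fell, the stress RNA Hsromega, with 26.8 and 27.8 against 58.5 and 47.1 RPKM. Of 7 small heat shock genes Hsp67Bc fell, in the core, with 2.22 and 2.42 against 5.93 and 6.05 RPKM and -1.20 (SE 0.14, adjusted p = 0.00217). In this gene Bully b lay with Bully a.

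Several further lists held no gene called as deposited, among them 24 biogenic amine genes (median 0.00), 13 clock genes (median 0.16), 24 synaptic genes (median 0.00), 24 ion channel genes (median 0.15), 14 amino acid transporter genes (median 0.03) and 6 Turandot and cold-linked genes (median -0.15). With the trends removed, 0 biogenic amine, clock and Turandot genes passed, 2 synaptic genes and 1 ion channel gene were lower and 1 amino acid transporter gene was higher. The serotonin enzyme gene Trh had 4.92 and 4.69 against 5.796 and 6.97 RPKM, Ddc 21.1 and 18.9 against 25.8 and 28.4 RPKM and Clk 4.64 and 4.25 against 3.61 and 2.86 RPKM. The sodium channel gene para had 9.56 and 10.9 against 10.4 and 3.74 RPKM and Syt1 46.4 and 43.8 against 42.3 and 24.3 RPKM, with CantonS b alone low in each. Muscle genes gave 2 rises among 25, bt and Unc-89, both very long genes, and both calls were lost with the trends removed (adjusted p = 0.570 and 0.521).

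Among 13 tested genes with an earlier link to aggression only Tk passed. Cyp6a20, a P450 gene tied to aggression, had 23.9 and 27.6 against 15.3 and 20.2 RPKM and adjusted p = 0.125, and dsx had 2.69 and 2.65 against 1.54 and 1.58 RPKM and adjusted p = 0.0819. CG13646 (now mah), a transporter-family gene that the study singled out on these samples, lay below the filter at 0.182 and 0.142 against 0.786 and 1.01 RPKM. Fitted without the filter its log2 difference was -1.07 (SE 0.10, adjusted p = 0.00617), and its choice by the study makes this no independent evidence. Among 15 hormone response genes 1 fell, Eip71CD, with 22.5 and 20.7 against 40.7 and 44.5 RPKM.

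Of the 114 core genes 76 belonged to no list. Those with the largest differences were CG34215 (0.589 and 0.564 against 14.4 and 14.8 RPKM), the cyclophilin-type gene CG7768 (0.718 and 0.699 against 8.42 and 11.4 RPKM), CG44008 (1.83 and 1.97 against 18.1 and 14.51 RPKM) and CG3939 (0.661 and 0.498 against 6.45 and 7.203 RPKM) among the falls. Among the rises were CG7366 (6.72 and 5.42 against 0.187 and 0.253 RPKM), CG31205 (55.5 and 51.4 against 4.89 and 8.27 RPKM), CG43402 (16.8 and 10.4 against 1.87 and 2.26 RPKM), CG10062 (3.78 and 6.94 against 0.537 and 0.603 RPKM) and CG33926 (Srg3, 21.01 and 19.8 against 3.88 and 5.62 RPKM). CG10924, at 5.59 and 5.16 against 0.974 and 0.645 RPKM, rose by 2.18 (SE 0.19, adjusted p = 0.000491) and was called with every single library left out; its length is not known here. Further core genes, picked after their values were seen, were NLaz, an apolipoprotein D-like lipocalin, at 3.003 and 3.52 against 9.63 and 15.96 RPKM; arg, arginase, at 1.16 and 1.201 against 5.995 and 6.53 RPKM; Cchl, cytochrome c heme lyase, at 18.9 and 17.5 against 44.6 and 49.7 RPKM; the receptor kinase gene Tie at 9.55 and 10.1 against 3.32 and 4.04 RPKM; and the splicing factor gene ncm at 13.1 and 12.5 against 4.56 and 4.72 RPKM. Exons of 39 core genes overlap another annotated gene or element, and in 4 cases the partners are both core genes, so the number of separate differences is below 114.

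Reared at 25C, the lines differed in 257 genes, 158 higher (1.86%) and 99 lower (1.17%), and 166 of the 976 genes were called at both temperatures with the same sign. The 19C and 25C comparisons share no library but use the same estimate of spread per gene. The test of the difference between them passed 0 genes in limma, with 2018 at an unadjusted p below 0.05, 280 at an adjusted p below 0.1 and a smallest adjusted p of 0.0921. A larger number of calls at 19C is therefore not shown to be a larger line difference in any single gene. Without CantonS a the interaction count was 903, and 20 when the length trends were removed as well.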

How the data were processed

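RNA sequencing of whole heads was deposited by the authors as 1 table of RPKM values per gene. Per the submitters' processing notes the tools were TopHat2 2.0.4 and edgeR 3.8.6, and the named builds BDGP5 and dm3; no read counts entered the fits. Library sizes come from the steps between low RPKM values of single-transcript genes. Columns carry group names but no replicate number, so a and b only name them.

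Testing covered 8480 genes whose mean over the libraries reached 1 RPKM, on log2(RPKM + 0.5) with limma 3.58.1 in R 4.3.3. One model with 4 group means and a mean-variance trend was fitted to all 8 libraries, leaving 4 residual degrees of freedom. The contrast of the lines at 19C and the line by temperature interaction were each adjusted by Benjamini-Hochberg, with a threshold of 0.05. A 2 against 2 permutation test cannot go below p = 0.333, so none was used. p-values measure the spread between these libraries. Removing length trends subtracted a lowess curve (span 0.3) of each library's deviation against exon length, taken from Ensembl release 115 (BDGP6) for 8311 genes. This also removes any true difference that follows length. The script was tested on simulated data.

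The genes and lists were chosen with earlier results of these data known. Named were the 12 largest rises and 12 largest falls among called genes whose libraries did not overlap, up to 4 members of each list by test statistic, and all insulin-like, IM and storage protein genes. Most other named genes are members of a list, called or not, or are said to be picked after their values were seen. No rule fixed which further uncalled members of a list are named. No coordinates are given, because the annotation used has another build.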

Additional observations from a re-analysis of the deposited data

How the results depend on the processing

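Counts are of 976 genes, 292 higher and 684 lower. Removing length trends gave 490 and 399. A mean of at least 5 RPKM gave 189 higher, and a fit of the 19C libraries only gave 161 higher. An adjusted p below 0.1 gave 1794 genes (563 and 1231), and a 2-fold minimum on the fitted scale 239 (68 and 171). Leaving out each library in turn gave 145 to 1996 genes, 34 to 834 higher and 97 to 1162 lower. The lowest total came without Bully b, with 159 without Bully a, and the highest without CantonS a; without CantonS b it was 572. With length trends removed as well, leaving out 1 of the 19C libraries gave 160 to 607 genes, 76 to 334 higher and 84 to 273 lower (259 and 162 higher without Bully a, 483 and 193 lower without CantonS a). The cause was not tested. An arm left with 1 library is assumed to vary like the other groups. For the interaction, 0 genes became 1 without the filter, 280 at an adjusted p below 0.1, and 0 to 903 with a library left out (903 without CantonS a, 466 and 5 without library b of CantonS or Bully at 25C). It was 20 with length trends removed and CantonS a left out, and 0 to 20 over all such fits.

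Over 4938 values of 202 single genes under 25 settings, 486 calls were lost, 128 gained and 5 turned sign. The sign changes were CG43202, 0.53 with length trends removed and 0.60 also without CantonS b, and bt, -0.0028 without Bully b and -0.0839 without CantonS a, and Unc-89, -0.0743 without CantonS a, all with length trends removed. A further 71 sign changes concerned genes called neither way. Median-of-ratios rescaling and quantile normalization changed the higher and lower split to 403 and 516, and 395 and 466.

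No paired analysis was possible because the columns of the table carry group names and no replicate number. Library sizes inferred from the RPKM steps were 47.6 to 117.8 M reads. Of these, 36.2% to 40.2% per library lay in genes with a known length. Each group has only 2 libraries.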

Other observations

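Large line differences were unevenly spread over the chromosome arms. Of the 8480 genes tested, 49 were called with a fitted difference of at least 4-fold at 19C. Of these, 23 lay on arm 2R, which is 1.34% of the 1721 genes tested there. Another 11 lay on 3R (0.526%), 5 on 2L (0.334%), 5 on 3L (0.318%), 4 on X (0.285%) and 0 on chromosome 4. Genes not assigned to these arms are left out of the counts by arm. The 4-fold minimum was set on the fitted scale, where the pseudocount understates the change of genes with low values. Cyp6a14, 7.11-fold lower in Bully at 19C by the ratio of means, is therefore not among the 49. Of the core genes, called with any library left out and with length trends removed, 38 lay on 2R (2.21%), 27 on 3R (1.29%), 22 on 2L (1.47%), 16 on 3L (1.02%) and 10 on X (0.712%). Calls of any size were closer between arms, beside 11.5% of all genes tested. They were 13.9% on 2R, 12.5% on 2L, 11.7% on 3R, 10.2% on 3L, 9.19% on X and 8.54% on chromosome 4. These shares are descriptions without a test, and neighbouring genes are not independent.

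A pair of sex-related genes was called at 19C, chosen after their values were seen. The sex-related list had 14 tested genes, 8 with positive and 6 with negative differences. Over all genes tested 3.44% were called higher. The secreted protein gene fit stood at 53.2 and 50.1 against 11.5 and 22.1 RPKM and rose by 1.66 (SE 0.38, adjusted p = 0.0277), and its call held without CantonS b (adjusted p = 0.0332). The sex determination gene Sxl stood at 13.05 and 13.1 against 8.49 and 7.19 RPKM and rose by 0.71 (SE 0.15, adjusted p = 0.0249), a call lost with length trends removed (adjusted p = 0.0755).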
